A study of Mus musculus with 8 samples.

Results

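*Nampt*, *Nmnat1* and the 7 mammalian sirtuin genes, *Sirt1* to *Sirt7*, were followed in primary murine articular chondrocytes, the cells that make and maintain joint cartilage. These 9 genes were taken by their symbols from a table of 54658 gene symbols, in which all 9 were found. RNA-Seq covered 4 samples given the proinflammatory cytokine IL-1β at 1 ng/mL over 24 h, and 4 vehicle controls cultured for as long. The cells of both groups came from digested femoral head cartilage of wild-type mice aged 3 weeks and were cultured in medium with serum. The labels do not say whether the samples came from separate mice or cultures, so p-values measure only the spread between these samples, which may be technical.

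NAD is a coenzyme of redox reactions and also a substrate that some enzymes split. *Nampt* encodes nicotinamide phosphoribosyltransferase, the rate-limiting enzyme of the salvage pathway, which turns nicotinamide into nicotinamide mononucleotide. *Nmnat1* encodes the nuclear adenylyltransferase that completes NAD from this mononucleotide. Sirtuins remove acetyl or other acyl groups from lysines of proteins, consume NAD in doing so and release nicotinamide, which the salvage pathway takes up again. SIRT1, SIRT6 and SIRT7 are mainly nuclear, SIRT2 is mainly cytoplasmic, and SIRT3, SIRT4 and SIRT5 lie in mitochondria. SIRT1 is known as a deacetylase of the NF-κB subunit p65, and NAMPT is also found outside cells, where it is called visfatin.

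The start region of *Nampt* is shown because this gene had the largest change of the 9. The 250 bases before its RefSeq start site (GRCm38.p6, chr12:32820085-32820334, plus strand) all lie inside the annotated *Nampt* gene, outside its exons. Capitals mark the GC box GGGCGG or its complement CCGCCC, a motif bound by Sp-family factors that was added to the search after the sequence was seen.

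Nampt: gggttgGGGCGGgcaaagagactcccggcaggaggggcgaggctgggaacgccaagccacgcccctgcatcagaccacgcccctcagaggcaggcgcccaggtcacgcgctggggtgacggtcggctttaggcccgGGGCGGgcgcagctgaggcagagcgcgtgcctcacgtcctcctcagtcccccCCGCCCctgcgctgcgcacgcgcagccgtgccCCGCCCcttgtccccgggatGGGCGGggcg

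This stretch held 5 GC boxes and was 75.6% G or C. Of 32851 RefSeq start regions of the same kind (250 bases before to 50 after the start), 35.7% held at least 1 GC box. The 9 genes have 12 such regions, of which 9 held one, in 8 of the 9 genes. The 2 regions of *Nmnat1* overlap, and the same box was counted in both. No match to the NF-κB consensus, AP-1 (TGANTCA), C/EBP (TTGCNNAA) or the E-box (CACGTG) was found in the *Nampt* region on either strand, which says only that these letters are not in this window.

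The NF-κB consensus was matched in 2 of these 12 regions, 1 of *Sirt2* and 1 of *Sirt6*, and in 4.51% of all start regions. Both matches are shown in 30 bases each, since *Sirt2* was called higher after IL-1β and *Sirt6* was not. Capitals mark the NF-κB matches, and in *Sirt2* overlapping matches on both strands form 1 run. The *Sirt2* stretch is at chr7:28766502-28766531 (plus strand), inside the neighbouring gene *Nfkbib* on the opposite strand. The *Sirt6* stretch is at chr10:81627346-81627375 (minus strand, at 1 of its 2 RefSeq start sites), inside the annotated *Sirt6* gene. All 250 bases before that start site lie in the *Sirt6* gene, 101 of them in its exons.
Sirt2: tatcGGGAATTCCCCaacacgccccctcat
Sirt6: gacaatgggaGGGACTTCCCtggaaggagg

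E-boxes were matched only in the *Sirt1* region (7.15% of all regions), C/EBP only in that of *Sirt7* (10.8%), and AP-1 in none of the 12 (7.81%). These matches are descriptions of sequence and were not tested for binding.

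IL-1β raised the mRNA of *Nampt* 1.57-fold, and *Sirt2* and *Sirt3* were higher by 12.2% and 24.7%, while *Nmnat1*, *Sirt1*, *Sirt4*, *Sirt5*, *Sirt6* and *Sirt7* did not pass the test. All 9 genes passed the filter on low counts, CPM (counts scaled to the size of each library) above 1 in 4 or more samples, and entered the quasi-likelihood test of edgeR with 14404 genes in all. Genes were called where the Benjamini-Hochberg adjusted p-value over all 14404 genes was under 0.05. By this rule 3 of the 9 were higher, where 20.4% of all genes tested were, and 0 of the 9 were lower, where 19.8% of all genes tested were. With a change beyond 2-fold required as well, 0 of the 9 were called, where 2.86% of all genes tested were called higher and 2.35% lower. The median log2 fold change was 0.04 over the 9 genes and -0.0012 over all genes tested.

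The total per sample was 10992355 to 17456063 counts. *Mmp3*, which encodes the matrix-degrading stromelysin, had a log2 fold change of 5.48, and *Col2a1*, the main cartilage collagen, one of -1.98. Chondrocyte markers summed over 5 genes reached 13380 to 13910 CPM with vehicle and 3247 to 3594 CPM with IL-1β. The largest part was *Col2a1*, with means of 11191 and 2844 CPM, and the lowest of the 5 was *Matn3*, with 8.47 and 2.62 CPM. The summed level of 6 macrophage and leukocyte markers was 11.5 to 12.6 CPM with vehicle and 15.9 to 19.0 CPM with IL-1β. Most of this sum was *Cd68*, whose mean was higher with IL-1β. *Lyz2* went the other way, with means of 1.86 CPM under vehicle and 1.24 CPM under IL-1β. The means of *Csf1r*, *Ptprc*, *Adgre1* and *Itgam* were higher with IL-1β but under 1 CPM in both groups, with *Itgam* at 0 counts in all vehicle samples. The neutrophil marker *Ly6g* was at 0 counts in all 8 samples. Osteoblast markers (3 genes) summed to 83.9 to 94.9 CPM with vehicle and 25.9 to 31.4 CPM with IL-1β. Osteoclast markers (3 genes, of which 1 passed the filter on low counts) summed to 109.2 to 110.9 CPM and 132 to 137.7 CPM. Nearly all of the osteoclast sum was *Ctsk*, with means of 109.1 CPM under vehicle and 134.5 CPM under IL-1β. *Acp5* (0.58 and 0.50 CPM) and *Oscar* (0.13 and 0.24 CPM) were low in both groups. Endothelial markers stayed at or under 1.19 CPM and erythroid markers at or under 1.80 CPM in every sample. The part of other cells in the changes below was not tested, and in such bulk samples fewer cells of a type cannot be told apart from less RNA per cell.

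**Figure D1:**
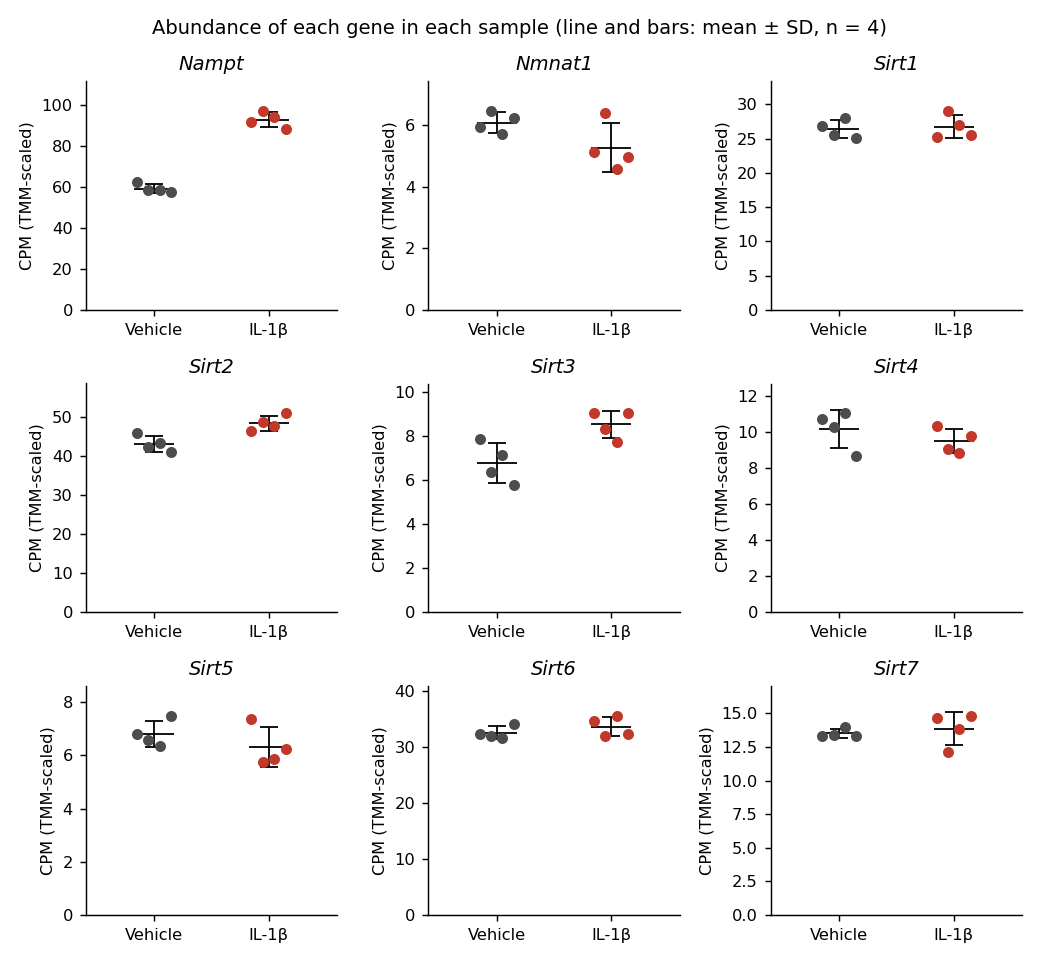
CPM scaled by TMM (vertical axes, each from 0) of the 9 genes in the 4 vehicle samples (grey points) and the 4 IL-1β samples (red points), with replicates 1 to 4 from left to right and lines and bars for the mean ± SD. The groups are apart for *Nampt* and, narrowly, for *Sirt2*, and overlap for the other 7 genes.

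*Nampt* (ENSMUSG00000020572.8) lies on chromosome 12 from 32819545 to 32853349 (GRCm38, plus strand) and shares no exon base with another annotated gene. Its abundance, in CPM scaled by the trimmed mean of M-values (TMM), was 62.5, 58.5, 58.5 and 57.6 in vehicle replicates 1 to 4 and 92.0, 97.2, 94.4 and 88.4 in IL-1β replicates 1 to 4. The groups did not overlap, with all 4 IL-1β samples above the highest vehicle sample. The mean rose from 59.3 ± 2.20 to 93.0 ± 3.76 CPM (SD, n = 4 each), a log2 fold change of 0.65 (SE 0.0407, adjusted p = 9.53e-14, edgeR). The 95% interval of the fold was 1.48 to 1.66, which stays under 2-fold. These values rest on 820 to 1590 reads per sample. Whichever single sample was left out, the value for *Nampt* stayed between 0.63 and 0.68.

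The 5 tested genes whose pattern over the 8 samples was most like that of *Nampt* were *Magi1*, *Daam1*, *Pcx*, *Sqstm1* and *St3gal2*. Likeness was the root mean square difference in log2 CPM after each gene was centred on its own mean, and it was 0.0241 for *Magi1* and 0.0409 to 0.0427 for the other 4. The log2 fold changes of these 5 genes were 0.59 to 0.66. The 8 samples fall into the 2 treatments, and the measure includes the difference between them.

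*Nmnat1* (ENSMUSG00000028992.13) lies on chromosome 4 from 149467572 to 149485202. It had 5.94, 6.47, 5.71 and 6.24 CPM in vehicle replicates 1 to 4 and 5.14, 6.42, 4.57 and 4.96 CPM in IL-1β replicates 1 to 4. IL-1β replicate 2 lay among the vehicle samples and the other 3 below them. The log2 fold change was -0.22 (SE 0.124, adjusted p = 0.178, edgeR), with a 95% interval of 0.722 to 1.03 for the fold. Without IL-1β replicate 2 the log2 fold change of *Nmnat1* was -0.33 and passed the threshold (adjusted p = 0.0453). The 57 to 112 reads per sample make this one of the least precise values of the 9.

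Among the sirtuins, *Sirt2* (ENSMUSG00000015149.14), which encodes the main cytoplasmic family member, a deacetylase of α-tubulin, lies on chromosome 7 from 28766735 to 28788661. It had 46.0, 42.5, 43.4 and 41.3 CPM in vehicle replicates 1 to 4 and 46.5, 48.8, 47.9 and 51.1 CPM in IL-1β replicates 1 to 4. The lowest IL-1β sample was above the highest vehicle sample by a small margin. The log2 fold change was 0.17 (SE 0.0455, adjusted p = 0.00413, edgeR), and the 95% interval of the fold was 1.05 to 1.20. When levels were expressed per length as TPM, which divides counts by gene length and scales each sample to the same sum, the groups of *Sirt2* overlapped, with 22.02 to 26.2 TPM with vehicle and 25.1 to 26.9 TPM with IL-1β. *Sirt2* shares 42 exon bases, 0.834% of its own, with *Nfkbib*, a gene for an inhibitor of NF-κB on the opposite strand, which itself had a log2 fold change of 0.48. The part of these shared bases in the value of *Sirt2* was not tested.

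*Sirt3* (ENSMUSG00000025486.17), the main mitochondrial deacetylase, lies on chromosome 7 from 140863666 to 140882309. It had 7.85, 6.36, 7.13 and 5.78 CPM in vehicle replicates 1 to 4 and 9.01, 8.29, 7.72 and 9.01 CPM in IL-1β replicates 1 to 4. The groups overlapped, because vehicle replicate 1 was above IL-1β replicate 3. The log2 fold change was 0.32 (SE 0.112, adjusted p = 0.0245, edgeR), and the 95% interval of the fold was 1.06 to 1.46. This call was lost with DESeq2 (adjusted p = 0.0513) and, as the lowest of the values with a sample left out, the log2 fold change of *Sirt3* was 0.25 without vehicle replicate 4 (adjusted p = 0.0973). It was also lost without vehicle replicate 2, IL-1β replicate 1 or IL-1β replicate 4, with log2 fold changes of 0.29 in each case and adjusted p = 0.0692, 0.0571 and 0.0641. Of its exon bases, 12.7% are shared with *Psmd13* and *Ric8a* on the opposite strand, whose log2 fold changes were -0.02 and 0.08 and did not pass the test.

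*Nampt* and *Sirt2*, 2 of the 9 genes, had IL-1β samples wholly above the vehicle samples in CPM, where 18.7% of all genes tested did. None of the 9 had IL-1β samples wholly below, where 18.2% of all genes tested did. Without regard to direction, the median size of the log2 fold change was 0.12 for the 9 genes and 0.157 for all genes tested.

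**Figure D2:**
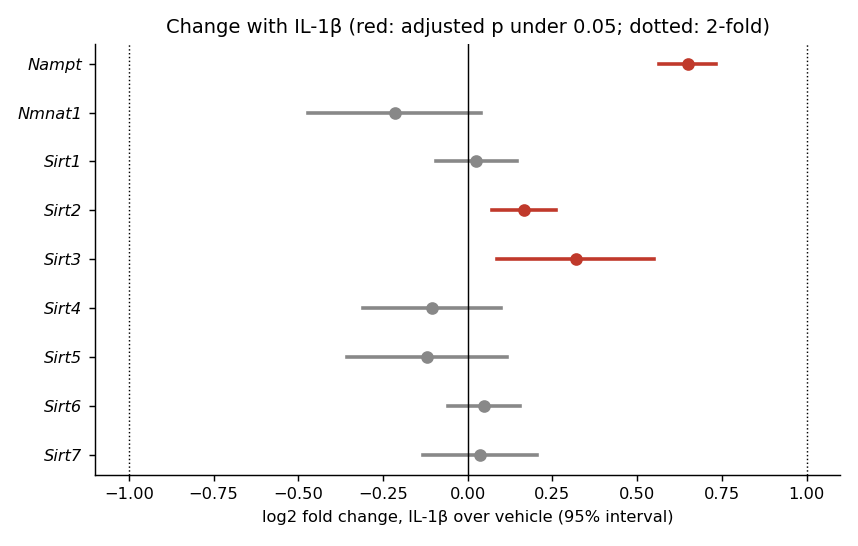
Log2 fold change of IL-1β over vehicle (horizontal axis) for each of the 9 genes, with 95% intervals from the edgeR fit as lines. *Nampt* at 0.65, *Sirt3* at 0.32 and *Sirt2* at 0.17 are drawn in red (adjusted p under 0.05), the other 6 genes in grey have intervals that include 0, and no interval reaches the dotted lines at 2-fold.

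The 3 sirtuins known mainly from the nucleus had narrow intervals around no change. *Sirt1* (ENSMUSG00000020063.16, chromosome 10, 63319005 to 63381704) had 26.8, 25.6, 28.0 and 25.0 CPM in vehicle replicates 1 to 4 and 25.3, 29.1, 27.0 and 25.6 CPM in IL-1β replicates 1 to 4. The samples of the groups were interleaved. The log2 fold change was 0.03 (SE 0.0587, adjusted p = 0.779, edgeR), and the 95% interval of the fold of *Sirt1* was 0.936 to 1.11. Without IL-1β replicate 2 its sign turned, to -0.02. Of its exon bases, 1.22% are shared with an antisense gene, *Gm16145*.

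*Sirt6* (ENSMUSG00000034748.16, chromosome 10, 81621785 to 81627797), a deacetylase of histone H3 at chromatin, ranged over 31.6 to 34.2 CPM in the vehicle samples and 32.0 to 35.6 CPM in the IL-1β samples. Its log2 fold change was 0.05 (SE 0.0515, adjusted p = 0.5, edgeR), and the interval of the fold was 0.961 to 1.11, the narrowest of the 6 genes that were not called. *Sirt7* (ENSMUSG00000025138.14, chromosome 11, 120618372 to 120625240), a nucleolar deacetylase, ranged over 13.3 to 14.0 CPM in the vehicle samples and 12.1 to 14.8 CPM in the IL-1β samples. Its log2 fold change was 0.04 (adjusted p = 0.777, edgeR), with an interval of 0.912 to 1.152 for the fold. Of its exon bases, 3.46% are shared with *Mafg* and *Mir6936* on the same strand, and *Mafg* had a log2 fold change of 0.53. A change of the size of that of *Nampt* lies outside the intervals of all 3 nuclear sirtuins. It also lies outside those of *Nmnat1*, *Sirt2*, *Sirt3*, *Sirt4* and *Sirt5*.

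The other mitochondrial sirtuins had few reads and wider intervals. *Sirt4* (ENSMUSG00000029524.16, chromosome 5, 115478010 to 115484725), which acts on lipoyl and other acyl groups of metabolic enzymes, ranged over 8.68 to 11.1 CPM in the vehicle samples and 8.85 to 10.4 CPM in the IL-1β samples. Its log2 fold change was -0.11 (adjusted p = 0.442, edgeR), with an interval of 0.807 to 1.07 for the fold. *Sirt5* (ENSMUSG00000054021.6, chromosome 13, 43365496 to 43395203), which removes succinyl, malonyl and glutaryl groups, ranged over 6.35 to 7.49 CPM in the vehicle samples and 5.77 to 7.39 CPM in the IL-1β samples. Its log2 fold change was -0.12 (adjusted p = 0.446, edgeR), with an interval of 0.782 to 1.08. Of the 3 mitochondrial sirtuins, *Sirt3* was on the higher side and the other 2 on the lower, with intervals that include no change. The difference between these genes was not tested.

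Levels were compared between the genes only per length. With the deposited length, which equals the summed exon bases of the gene, *Nampt* and *Sirt6* had the highest levels with vehicle, at 32.9 ± 1.95 and 32.7 ± 0.545 TPM (SD, n = 4), and did not differ beyond their spread. *Sirt2* followed with 24.1 ± 1.71 TPM, and then *Sirt1* with 13.9 ± 0.990 TPM and *Sirt4* with 11.9 ± 1.52 TPM. The ranges of *Sirt1* and *Sirt4* overlapped, but *Sirt1* was above *Sirt4* in each of the 4 vehicle samples. *Sirt7* (7.35 ± 0.294 TPM) and *Nmnat1* (5.61 ± 0.292 TPM) came next, without overlap. *Sirt3* (3.18 ± 0.497 TPM) and *Sirt5* (3.12 ± 0.158 TPM) were lowest and overlapped.

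With IL-1β the order by the deposited length was the same. *Nampt*, at 49.9 ± 2.75 TPM, then stood above *Sirt6*, at 32.8 ± 1.95 TPM, in every sample and without overlap. *Sirt3* (3.86 ± 0.348 TPM) stood above *Sirt5* (2.82 ± 0.400 TPM) without overlap. The ranges of *Nmnat1* (4.71 ± 0.786 TPM) and *Sirt3* overlapped, but *Nmnat1* was above *Sirt3* in each of the 4 IL-1β samples. The summed level of the 7 sirtuins was 90.2 to 101 TPM with vehicle and 95.1 to 102.1 TPM with IL-1β. *Nampt* amounted to 0.333 to 0.350 times this sum with vehicle and to 0.485 to 0.548 times with IL-1β. Within the sum, *Sirt6* held 34.1% with vehicle and 33.7% with IL-1β, *Sirt2* 25.0% and 26.9%, and *Sirt5* 3.26% and 2.89%. These shares and the ratio of *Nampt* to the sum hold for the deposited length only and were not computed with other lengths.

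The order depended on which length was used. With the longest protein-coding transcript of GENCODE vM21 in place of the summed exons, levels with vehicle in RPKM, which scales counts to length and library size, were 20.5 for *Sirt2*, 17.2 for *Sirt6* and 13.1 for *Nampt*. With the coding length they were 40.3 RPKM for *Nampt*, 37.2 RPKM for *Sirt2* and 32.5 RPKM for *Sirt6*. *Nampt*, *Sirt2* and *Sirt6* were the 3 highest with each of the 3 lengths. *Sirt7* moved from rank 6 to rank 4 with the longest coding transcript, and *Nmnat1* moved from rank 7 to rank 9. By the longest coding transcript, *Nampt* went from rank 3 with vehicle to rank 2 with IL-1β (20.5 RPKM). *Sirt6* went from rank 2 to rank 3 (17.8 RPKM with IL-1β).

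**Figure D3:**
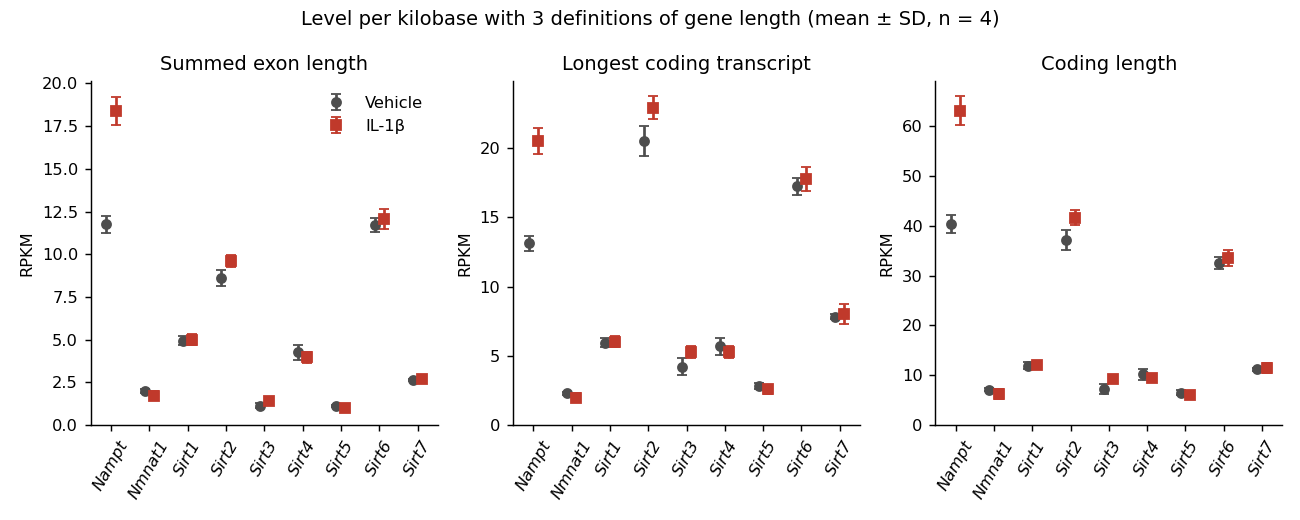
Level in RPKM (vertical axes, each from 0) of the 9 genes with vehicle (grey circles) and IL-1β (red squares), as mean ± SD of 4 samples, computed with the summed exon length, the longest coding transcript and the coding length. *Nampt*, *Sirt2* and *Sirt6* are highest in all 3 panels, and their order among themselves differs between panels.

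Other genes around NAD were described by 5 lists, whose median log2 fold changes, in the order given here, were 0.10, 0.33, 0.08, -0.04 and 0.17, against -0.0012 over all genes tested. The first held 15 genes of NAD synthesis from other precursors or by other isoforms, including *Acmsd*, whose product diverts the tryptophan route away from NAD. Of these, 5 passed the filter on low counts (*Naprt*, *Nadsyn1*, *Nmnat3*, *Nmrk1* and *Afmid*) and 0 were called by edgeR, where 20.4% of all genes tested were called higher and 19.8% lower. At an unadjusted p under 0.05 there was 1, *Naprt*, the entry enzyme for nicotinic acid, with 2.62 ± 0.263 CPM (SD, n = 4) under vehicle and 3.52 ± 0.731 CPM under IL-1β (log2 fold change 0.41, adjusted p = 0.0629, edgeR). DESeq2 called 0 of them too, and without IL-1β replicate 3 *Naprt* passed (log2 fold change 0.53, adjusted p = 0.0193). The other 10, among them the enzymes of the route from tryptophan *Tdo2*, *Ido1*, *Ido2*, *Kmo*, *Kynu*, *Haao* and *Qprt*, had at most 9 reads in any sample. *Ido2* had 3, 3, 4 and 4 reads with IL-1β and 0 in each vehicle sample.

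The list of NAD phosphorylation, transport and nicotinamide handling had 8 genes, all tested, of which 5 were higher and 0 lower (62.5% called). Among all genes tested, 20.4% were higher and 19.8% lower. *Nadk*, the cytosolic kinase that makes NADP from NAD, rose from 148 ± 3.55 CPM to 242.8 ± 1.30 CPM (SD, n = 4), a log2 fold change of 0.71 (SE 0.0301, adjusted p = 8.91e-18, edgeR). Its size was close to that of *Nampt*, and the 95% intervals of both log2 fold changes overlapped (0.65 to 0.78 for *Nadk*, 0.57 to 0.73 for *Nampt*). The mitochondrial kinase *Nadk2* differed by 0.47 on the log2 scale (adjusted p = 4.08e-05) and *Pnp*, a purine nucleoside phosphorylase, by 0.53 (adjusted p = 0.000457). *Nnmt*, which methylates nicotinamide and so removes it from salvage, had 2.00 ± 0.132 CPM (SD, n = 4) under vehicle and 2.73 ± 0.342 CPM under IL-1β (log2 fold change 0.46, adjusted p = 0.0428, edgeR). The call of *Nnmt* was lost with DESeq2 (adjusted p = 0.124) and, in edgeR, without a filter on low counts (0.109). It was also lost without any of 5 single samples, IL-1β replicates 3 and 4 and vehicle replicates 2, 3 and 4 (adjusted p = 0.0795 to 0.123). The fifth, *Slc25a51*, the mitochondrial NAD carrier, named after its values were seen, differed by 0.09 on the log2 scale (adjusted p = 0.0435, edgeR). It lost its call when scaled by library totals instead of TMM (adjusted p = 0.062) and with DESeq2 (0.0922). The edgeR call was also lost without a filter on low counts (0.137) and with 1 factor of unwanted variation (0.102). It was lost too without any 1 sample except IL-1β replicate 4 or vehicle replicate 3 (0.0633 to 0.138).

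Of 18 other enzymes that split NAD, 16 were tested, of which 3 were higher, 1 was lower and 12 were not called (25% called, beside 20.4% higher and 19.8% lower among all genes tested). *Bst1*, an NAD glycohydrolase of the cell surface related to CD38, had 4, 3, 5 and 3 reads in vehicle replicates 1 to 4 and 12, 22, 25 and 18 reads in IL-1β replicates 1 to 4. It passed the filter on low counts only through the IL-1β samples, where it was high, so its place among the 3 is no support for a change of the list, and its fitted log2 fold change of 2.51 rests on vehicle counts near the floor of 3 reads. With CPM above 1 required in all 8 samples *Bst1* was not tested, and 2 genes of the list were higher. *Cd38* itself had at most 4 reads in any sample and was not tested. *Parp10* and *Parp16*, mono-ADP-ribosyltransferases, had log2 fold changes of 0.47 (adjusted p = 0.00502) and 0.59 (adjusted p = 0.00413). *Tiparp*, a mono-ADP-ribosyltransferase induced by the aryl hydrocarbon receptor, fell from 80.3 ± 3.74 CPM to 54.7 ± 2.89 CPM (SD, n = 4), -0.56 as log2 fold change (adjusted p = 1.68e-11). *Parp1*, the most active PARP of the DNA damage response, had 40.8 ± 2.32 CPM (SD, n = 4) under vehicle and 43.3 ± 0.883 CPM under IL-1β (log2 fold change 0.08, adjusted p = 0.169), and passed only without vehicle replicate 2 (log2 fold change 0.12, adjusted p = 0.0482).

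The zinc-dependent histone deacetylases, which do not use NAD, were taken beside the sirtuins. All 11 were tested, with 4 higher, 2 lower and 5 not called (54.5% called, beside 20.4% higher and 19.8% lower among all genes tested). *Hdac7*, of class IIa, rose from 18.6 ± 1.55 CPM to 36.4 ± 3.02 CPM (SD, n = 4), a log2 fold change of 0.98 (SE 0.0658, adjusted p = 4.44e-13, edgeR). *Hdac4*, also of class IIa and known as a repressor of chondrocyte hypertrophy, differed by 0.22 on the log2 scale (adjusted p = 5.24e-06). *Hdac9* of the same class fell by 0.64 on the log2 scale (3.98 ± 0.469 to 2.54 ± 0.331 CPM, adjusted p = 0.00162), and the class I gene *Hdac2* differed by -0.25 on the log2 scale (adjusted p = 2.26e-05). Of the 7 sirtuins, 2 were called, both higher, and the difference between the lists was not tested. *Hdac6*, 1 of the 4 higher and named after its values were seen, lost its call with DESeq2 (adjusted p = 0.0854). Its edgeR call was also lost without a filter on low counts (0.0657). The same held without IL-1β replicate 3 or 4 or vehicle replicate 1 or 2 (adjusted p = 0.0546 to 0.15).

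Of 17 regulators and protein substrates of sirtuins, 13 were tested, with 9 higher, 1 lower and 3 not called (76.9% called, beside 20.4% higher and 19.8% lower among all genes tested). The 9 fell to 7 with DESeq2 and to 7 without vehicle replicate 1. *Sod2*, the mitochondrial superoxide dismutase that SIRT3 deacetylates, had 108.7, 112.4, 112.4 and 107.3 CPM in vehicle replicates 1 to 4 and 665, 683, 709 and 693 CPM in IL-1β replicates 1 to 4. Its log2 fold change was 2.64 (SE 0.034, adjusted p = 4.04e-30, edgeR), the only one of the list beyond 2-fold. *Rela*, the gene for the p65 subunit of NF-κB, rose from 93.2 ± 4.21 to 124.2 ± 4.90 CPM (log2 fold change 0.42, adjusted p = 2.16e-10). *Acadl*, a mitochondrial fatty acid dehydrogenase, had a log2 fold change of 0.56, *Trp53* one of 0.19 and *Ep300*, an acetyltransferase, one of 0.17. The gene that fell, named after its values were seen, was *Idh2*, a mitochondrial isocitrate dehydrogenase (log2 fold change -0.27, adjusted p = 0.00199). Of the 9, *Foxo1* and *Acss2*, named after their values were seen, lost their calls with DESeq2 (adjusted p = 0.0996 and 0.0511). *Acss2* lost it also without vehicle replicate 1 (0.0573), and *Foxo1* without any 1 sample except IL-1β replicate 4 or vehicle replicate 4 (0.0525 to 0.183). In edgeR fits of all 8 samples, *Foxo1* lost it with library totals (0.0558), without a filter on low counts (0.0958) and with 1 factor of unwanted variation (0.0931). *Ccar2*, whose product inhibits SIRT1, and *Rps19bp1*, whose product activates it, had log2 fold changes of 0.06 (adjusted p = 0.325) and 0.04 (adjusted p = 0.601).

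**Figure D4:**
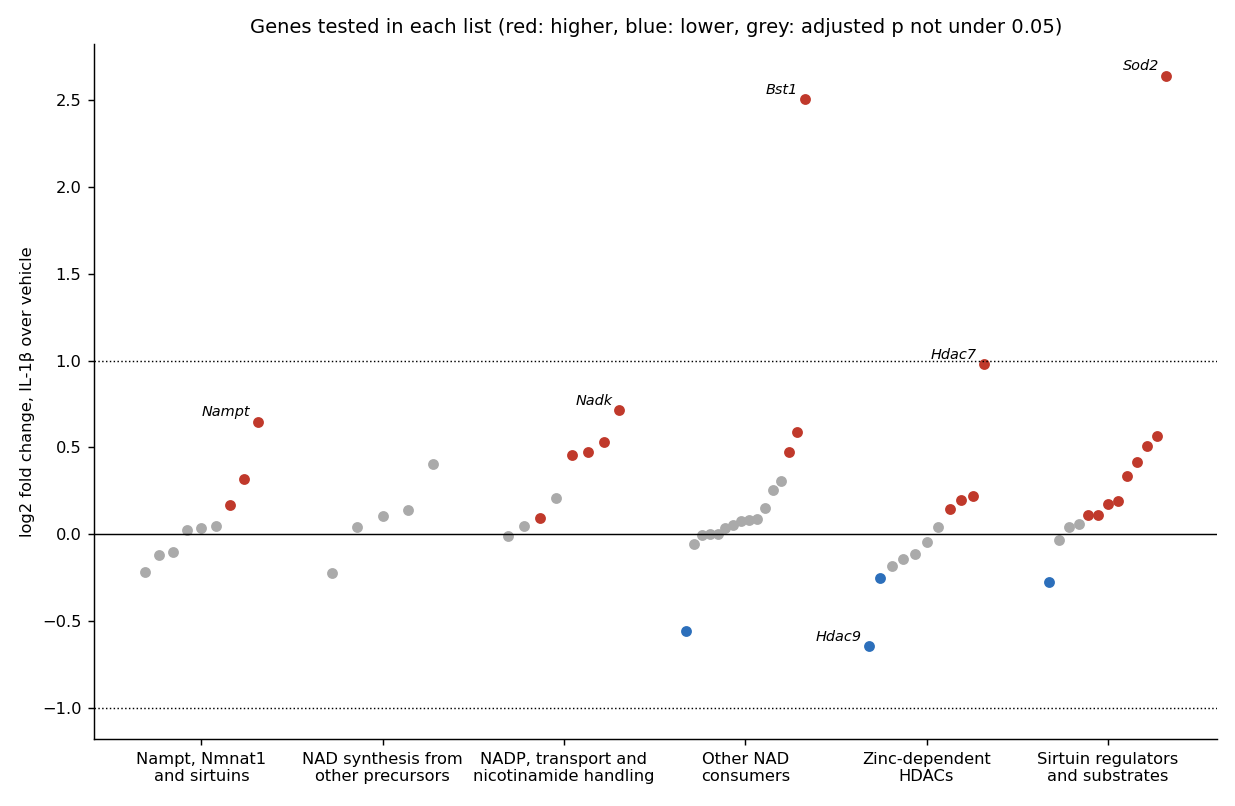
Log2 fold change of IL-1β over vehicle (vertical axis) for every tested gene of the 9 genes and of the 5 lists, 1 point per gene, ordered within a list by its value, in red when called higher, in blue when called lower and in grey otherwise. *Bst1* at 2.51 and *Sod2* at 2.64 are the only points beyond the dotted lines at 2-fold, the former with 3 to 5 reads in the vehicle samples, and the highest of the 9 genes is *Nampt* at 0.65.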

How the data were processed

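RNA-Seq of 4 IL-1β and 4 vehicle samples of primary murine articular chondrocytes was used. Reads were trimmed by the authors (cutadapt) and aligned to mm10 with GENCODE vM20 by STAR (2.4.2a in the submitters' processing notes, another version in the paper) and whole-number counts per gene symbol from featureCounts were deposited, with a length column in bases. A batch correction with RUVseq is named, and whether it precedes these counts is not stated. All 8 count columns were used as deposited. Samples were grouped by their titles.

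Counts were scaled by TMM and tested with edgeR 4.0.16 (limma 3.58.1, R 4.3.3), quasi-likelihood test, treatment as the only term, over genes whose CPM exceeded 1 in 4 or more samples, with Benjamini-Hochberg adjustment. Standard errors are the log2 fold change over the root of the F statistic, and 95% intervals use the moderated degrees of freedom. The code was tested on simulated data. TPM and RPKM were computed from the counts and the length column. Positions, transcripts and exon overlaps came from GENCODE vM21, of the same assembly as mm10, and all 9 exon lengths equalled the deposited ones. Start regions came from RefSeq (GRCm38.p6), where all 9 gene symbols were found. The end of each region was found in a GENCODE transcript of its gene, except for the 1 region of *Sirt5*. The NF-κB consensus was searched by its usual degenerate letters, on both strands, as were the other motifs. Whether counting used strand is not given in the sources used here.

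At these depths 3 counts are 0.172 to 0.273 CPM. This floor and the fits cover counting error and the spread between samples, and reads that carry no molecular identifier need not be separate molecules. Pairs of samples within a group differed by a chi-square per degree of freedom of 1.98 to 6.34, more than counting error (1). So no library was taken as deposited in duplicate, which does not show that the samples came from separate cultures. The highest values were of vehicle replicate 4 against vehicle replicates 1 (6.34) and 2 (6.24), and every other pair within a group was at 3.26 or less.

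The 9 genes and the lists were chosen with earlier results of these data known. Named were the 9 genes, in each list the genes called beyond 2-fold and up to 4 more with the smallest adjusted p, and the 5 genes most like *Nampt* (log2 of CPM + 0.5); list genes outside this rule are named to account for a count or as members that did not pass. Alternatives were DESeq2 1.42.0, its size factors or library totals instead of TMM, other filters, the replicate number as a block, 1 factor of unwanted variation (RUVs, written out in R), glmTreat, other lengths, and each sample left out in turn. Other values and figures used Python 3.11.15, pandas 2.3.3 and matplotlib 3.10.9.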

Additional observations from a re-analysis of the deposited data

Results flagged for a closer look

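In 3 of 146 groups of 4 values compared (total counts, the 9 genes, the tested genes of the lists, the check genes and the genes most like *Nampt*, each per treatment), 1 sample lay further from the other 3 than Dixon's ratio allows at its 95% critical value. By chance about 1 group in 20, or 7.3 groups, would do so. All 3 were vehicle replicate 3. *Sirt7* had 14.0 CPM there, against 13.3 to 13.4 CPM in the other vehicle samples. *Sarm1*, an NAD-splitting enzyme of axons, had 2.00 CPM, against 2.30 to 2.31 CPM. *Hdac9* had 3.28 CPM, against 4.16 to 4.27 CPM.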

How the results depend on the processing

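Over the 7 other fits of all 8 samples, the log2 fold change of *Nampt* was 0.64 to 0.66 and that of *Sirt2* 0.16 to 0.18, both called in each. *Sirt3* lost its call with DESeq2 (0.32) and with 1 factor of unwanted variation (0.29). With each sample left out in turn, log2 fold changes were 0.63 to 0.68 for *Nampt*, 0.14 to 0.20 for *Sirt2*, 0.25 to 0.40 for *Sirt3* (called in 4 of 8), -0.33 to -0.14 for *Nmnat1* and -0.017 to 0.051 for *Sirt1*, which was reversed without IL-1β replicate 2. The members called were then 2 to 3 higher and 0 to 1 lower. The cause of these changes was not tested. Genes called higher in the list of NAD phosphorylation, transport and nicotinamide handling fell from 5 to 3 with DESeq2 and to 3 without a filter on low counts, and were 3 to 4 with a sample left out. For NAD synthesis from other precursors, 1 gene was called without a filter and 0 to 1 with a sample left out. The former was *Ido2* (log2 fold change 4.95, adjusted p = 0.000795, edgeR), which rests on 3 to 4 reads with IL-1β and 0 with vehicle. The latter was *Naprt*, without IL-1β replicate 3. Beyond 2-fold, 412 genes were called higher and 339 lower. These counts were 635 and 571 without a filter, where 32379 genes were tested, 262 and 175 with glmTreat, which tests against 2-fold, and 266 higher with a CPM above 1 in all 8 samples. The order of the 9 genes per length kept 1 gene at its rank with the longest coding transcript and 3 with the coding length, both chosen after seeing the data. The coding length of RefSeq proteins was not run.

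Both groups carry replicate numbers 1 to 4, but samples of the same number did not deviate together (r across genes -0.0689 to 0.0353, and 1 of 4 correlated best with its own number). With this replicate block, 5643 genes were called against 5796 without, with 5586 in common. *Nampt*, *Sirt2* and *Sirt3* were called with it (adjusted p of *Sirt3* 0.0248), while *Nnmt* (adjusted p = 0.07) and *Foxo1* (adjusted p = 0.0553) lost their calls. *Sirt3*, *Sirt5* and *Nmnat1* had 57 to 136 reads per sample, and this depth limits what could be detected for them.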
